A study of Homo sapiens with 54 samples.

Results

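Expression was followed for 10 genes that the transcription factor NF-kB is known to switch on: the chemokines CXCL1, CXCL2, CXCL3, CXCL8 and CCL20, the inhibitors NFKBIA and TNFAIP3, the survival gene BIRC3, the NF-kB subunit gene RELB and the adhesion gene ICAM1. They were taken by symbol from the 59368 genes of the deposited tables, and all 10 passed the filter on low counts in every comparison. RNA had been sequenced from 3 human colorectal cancer lines (HT-29, HCT-116 and DLD-1), both in the sensitive state and in a state labelled resistant to 5-fluorouracil (5-FU), a pyrimidine analogue used against these tumours. The resistant cells had been grown for months in rising 5-FU and were kept in it. Every line and state was exposed for 24 h to 10 µM uracil, the control, to 10 µM 5-FU, or to 10 µM 5-FU followed by a change of medium and irradiation at a dose set for each line. This gave 18 conditions with 3 libraries each, 54 in all. No library had been irradiated without 5-FU, and the labels name no independent resistant derivatives of a line, so resistance and other traits of the selected cells cannot be told apart.

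NF-kB proteins wait in the cytoplasm bound to inhibitors of the IkB family, of which NFKBIA encodes the best known member. Signals from TNF, IL-1 or Toll-like receptors activate the IKK kinases, the inhibitor is degraded, and the freed dimers enter the nucleus. Among the genes then transcribed are NFKBIA itself and TNFAIP3 (A20), which both shut the signal off again, and BIRC3 (cIAP2), a ubiquitin ligase that blocks cell death. RELB is the partner of NFKB2 in the slower, non-canonical branch of the pathway. CXCL1, CXCL2, CXCL3 and CXCL8 attract neutrophils through the receptor CXCR2, CCL20 attracts CCR6-bearing lymphocytes and dendritic cells to the gut epithelium, and ICAM1 holds leukocytes through beta-2 integrins.

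Stretches of the promoters are shown because they carry what the genes share in sequence: a match to the kappaB core GGAANNNCC, the letters that NF-kB dimers bind. The sequences were read on the strand of the gene from the RefSeq promoter table of GRCh38, which covers 250 bases before to 50 after the start and held 9 of the 10 genes. Capitals mark the match on either strand. The neutrophil chemokines and the 3 genes that rose in sensitive HT-29 are given, each as 101 bases.
CXCL1, chr4:73869294-73869394, plus strand: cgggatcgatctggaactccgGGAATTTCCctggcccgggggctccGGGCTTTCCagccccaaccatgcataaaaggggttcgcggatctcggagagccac
CXCL2, chr4:74099194-74099294, minus strand: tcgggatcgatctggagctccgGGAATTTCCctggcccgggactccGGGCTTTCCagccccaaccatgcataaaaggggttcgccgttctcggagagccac
CXCL3, chr4:74038688-74038788, minus strand: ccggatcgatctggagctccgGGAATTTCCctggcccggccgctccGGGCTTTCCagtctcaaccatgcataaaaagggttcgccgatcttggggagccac
CXCL8, chr4:73740432-73740532, plus strand: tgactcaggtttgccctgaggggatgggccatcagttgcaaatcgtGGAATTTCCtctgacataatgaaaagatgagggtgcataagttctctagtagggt
TNFAIP3, chr6:137867158-137867258, plus strand: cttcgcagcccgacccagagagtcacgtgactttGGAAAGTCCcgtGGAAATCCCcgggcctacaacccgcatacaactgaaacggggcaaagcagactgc
BIRC3, chr11:102317239-102317339, plus strand: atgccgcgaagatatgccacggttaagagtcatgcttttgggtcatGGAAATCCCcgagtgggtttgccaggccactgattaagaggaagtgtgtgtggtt
ICAM1, chr19:10270888-10270988, plus strand: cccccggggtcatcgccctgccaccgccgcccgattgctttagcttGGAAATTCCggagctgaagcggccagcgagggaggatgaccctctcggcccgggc

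All 9 promoters in the table held a kappaB match, against 20.1% of all 35116 promoters of the same length. CXCL1, CXCL2 and CXCL3 held 2 matches each in nearly the same place, the first beginning 78, 77 and 78 bases before the start and the second 53 bases before it in all 3. Their windows were 89.3% to 94.1% identical in pairwise alignments, while CXCL8, which lies in the same cluster on chromosome 4, was 45.7% to 48.0% identical to them. CXCL8 alone of the 9 held the AP-1 core TGANTCA, at 137 bases before the start, which 7.71% of all promoters held. CCL20 held 1 kappaB match, at 79 bases before the start, and NFKBIA held 2. The match in BIRC3 and that in ICAM1 lay farther out, at 199 and 186 bases before the start. A TATAAA stood in 4 of the 9 promoters and in 11.5% of all. No kappaB match overlapped an AP-1 or TATAAA match. The gene bodies without a printed window are CCL20 at chr2:227805739-227817564, NFKBIA at chr14:35401079-35404749 and RELB at chr19:45001461-45038192 in the GENCODE annotation of GRCh38. A match describes letters and not binding, and the genes were chosen as NF-kB targets.

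**Figure D1:**
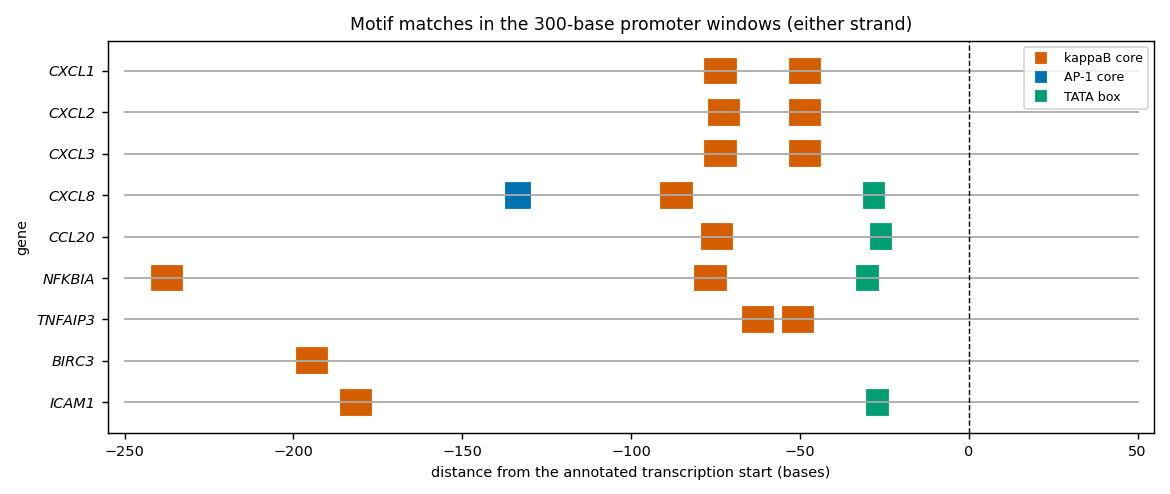
Map of the motif matches in 9 promoters; the horizontal axis is the distance in bases from the annotated start, grey lines are the 300-base windows and boxes are matches on either strand. The paired kappaB matches of CXCL1, CXCL2 and CXCL3 lie at 53 and 77 to 78 bases before the start.

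The libraries held between 38956787 and 218518001 estimated counts, with a median of 51373192, and the deepest was a sensitive DLD-1 uracil library. Each of 7 epithelial markers reached 1 TPM in at least 1 library, and 6 of the 7 passed the filter on low counts among the HCT-116 libraries. The uracil libraries labelled resistant HT-29 expressed at least 1 TPM (transcript abundance scaled for length and depth) of 62 of the 64 genes that marked sensitive HCT-116 and of 0 of the 12 that marked sensitive HT-29, so they carried the profile of another line than their label. They are called labelled resistant HT-29 below, and no difference between them and sensitive HT-29 can be read as an effect of resistance. In resistant DLD-1 under uracil, replicate 1 stood below the other replicates for every chemokine, and the results that rest on it are given with and without it. Estimated counts lay within 0.01 of a whole number in 0 of the 54 libraries for ICAM1, 29 for CXCL2, 30 for CXCL3, 36 for BIRC3 and 42 for CCL20, and in 47 to 54 for the other genes; TNFAIP3, BIRC3 and ICAM1 overlap antisense RNAs, and the strand setting of the counting is not given in the sources used here. Differences below are log2 fold changes from edgeR's quasi-likelihood test on the estimated counts, adjusted by the Benjamini-Hochberg method over all genes tested, with the standard error (SE). A gene was called when the adjusted p was at most 0.01 and the change at least 2-fold; a difference between 2 responses was called on the adjusted p alone. Levels are in TPM, as mean ± SD of 3 libraries.

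Without 5-FU the lines differed in these genes by far more than the replicates did. Sensitive DLD-1 expressed all 5 chemokines, with CXCL3 at 46.6 ± 3.21 TPM (SD, n = 3), CXCL8 at 20.3 ± 2.211, CXCL1 at 19.1 ± 1.44, CXCL2 at 17.9 ± 1.05 and CCL20 at 13.1 ± 0.25 TPM. In sensitive HCT-116 cells the same genes lay between 0.681 and 2.89 TPM on average. Sensitive HT-29 expressed CXCL8 at 18.1 ± 0.908 TPM, with its libraries at 19.0, 17.97 and 17.2 against 22.2, 20.8 and 17.8 in DLD-1. These overlapped, and the difference between both lines was -0.05 (95% interval -0.33 to 0.23). The other chemokines of HT-29 were lower, from CXCL1 at 5.95 ± 0.554 down to CCL20 at 0.937 ± 0.338 TPM.

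ICAM1 differed by the largest fold between the sensitive lines under uracil among the 10 genes, by mean TPM. Its level was 18.6, 18.3 and 17.6 TPM in sensitive DLD-1. In sensitive HT-29 it was 2.34, 2.53 and 2.24, and in sensitive HCT-116 it was 0.168, 0.293 and 0.217 TPM. The groups were far apart, and DLD-1 exceeded HCT-116 by 7.12 (SE 0.17, adjusted p = 9.66e-20, edgeR). TNFAIP3 was ordered differently, at 11.7 ± 0.542 TPM in DLD-1, 0.507 ± 0.143 in HT-29 and 3.94 ± 0.499 in HCT-116. RELB stood at 10.3 ± 0.572 TPM in DLD-1, 6.63 ± 0.437 in HT-29 and 6.98 ± 0.335 in HCT-116, and it was called in no pair of sensitive lines.

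By the test, 9 of the 10 genes were higher in sensitive DLD-1 than in sensitive HCT-116, where 13.5% of all genes were called higher. Against sensitive HT-29, 8 were higher in DLD-1, where 17.8% of all genes were. Sensitive HT-29 exceeded HCT-116 in 5 (CXCL1, CXCL2, CXCL3, CXCL8 and ICAM1) and was lower in 1 (TNFAIP3, -2.28, SE 0.12), against 16.4% and 22.2% of all genes. Without sensitive HT-29 uracil replicate 1 the CXCL2 call against HCT-116 was lost, and without replicate 3 NFKBIA fell to 0.96 between DLD-1 and HT-29, under 2-fold.

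**Figure D2:**
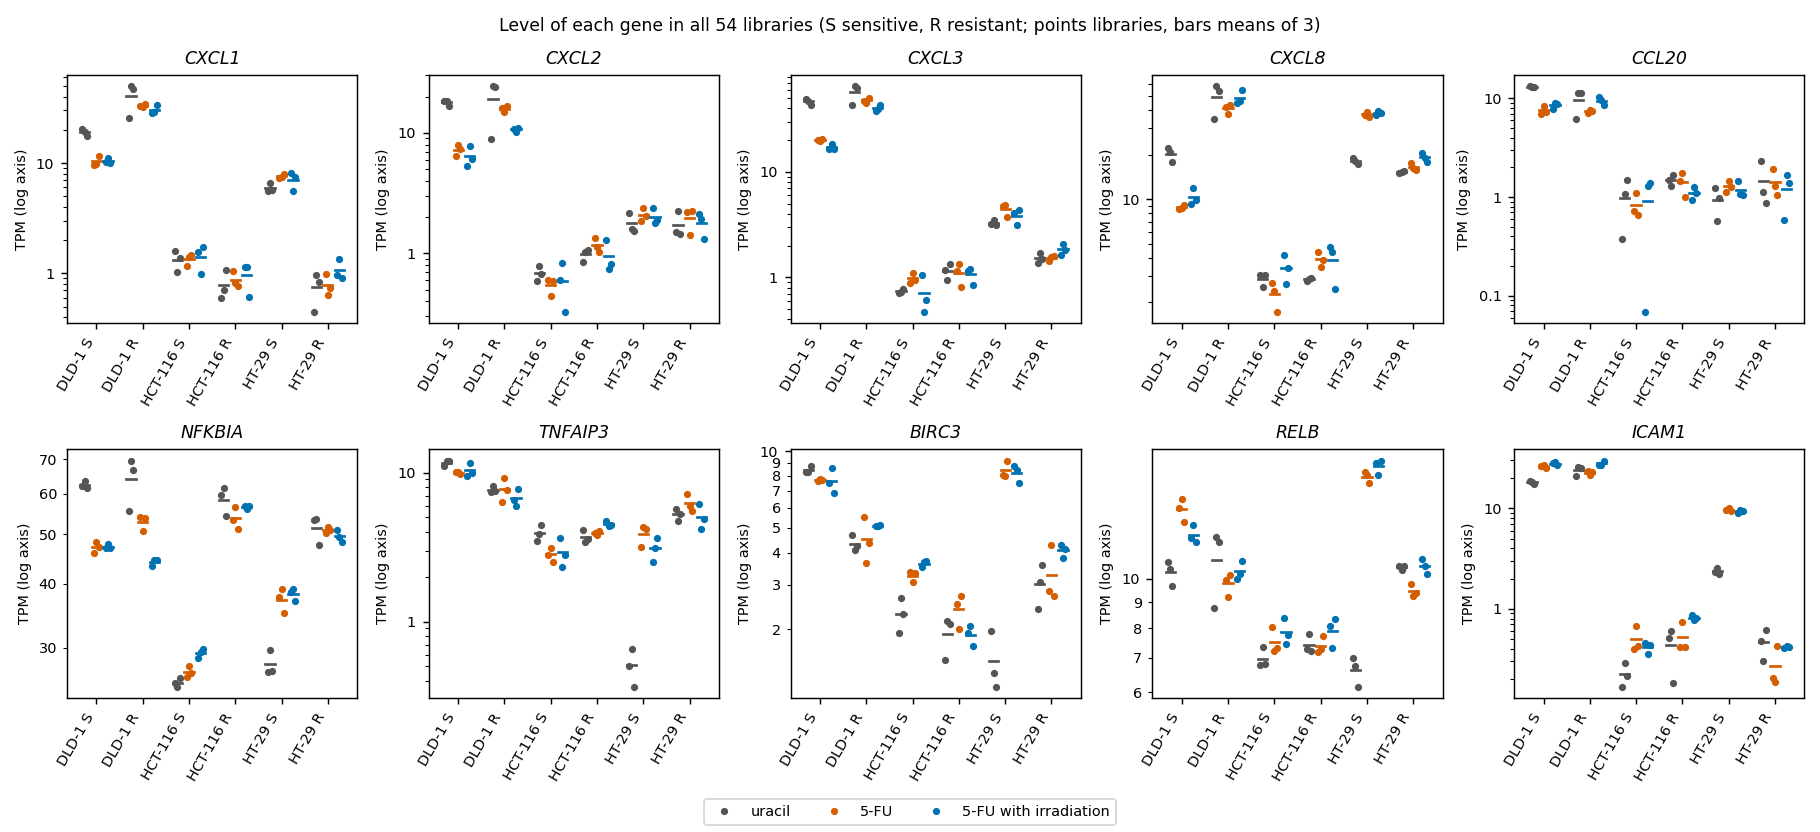
Level of each of the 10 genes in all 54 libraries, in TPM on a log axis; points are libraries, bars are means of 3, and S and R are sensitive and labelled resistant cells. CXCL1, CXCL2, CXCL3 and CCL20 have their highest levels in DLD-1, and the HT-29 R libraries lie near HCT-116 for CXCL1 and ICAM1 but not for CXCL8.

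In sensitive DLD-1 the neutrophil chemokines were lower under 5-FU. CXCL3 stood at 49.4, 47.3 and 43.1 TPM under uracil and at 20.1, 19.5 and 20.4 under 5-FU. CXCL2 went from 18.5, 18.6 and 16.7 to 6.45, 7.92 and 7.33 TPM, and CXCL8 from 22.2, 20.8 and 17.8 to 8.50, 8.64 and 9.17 TPM. No library overlapped between the groups for any of them. The log2 fold changes were -1.31 (SE 0.10, adjusted p = 2.33e-09) for CXCL3, -1.47 (SE 0.23, adjusted p = 1.9e-05) for CXCL2 and -1.32 (SE 0.15, adjusted p = 4.82e-07, edgeR) for CXCL8. These 3 of 10 were called lower, against 1.37% of all genes.

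The other genes of sensitive DLD-1 changed by less than 2-fold. CXCL1, at 20.5, 19.0 and 17.7 TPM under uracil and 9.63, 9.79 and 11.7 under 5-FU, changed by -0.97 (SE 0.17) and passed the fold threshold only when sensitive 5-FU replicate 3 or sensitive uracil replicate 3 was left out, with -1.06 and -1.01. CCL20 changed by -0.91 (SE 0.15), NFKBIA by -0.50 (SE 0.07), TNFAIP3 by -0.34 (SE 0.07) and BIRC3 by -0.21 (SE 0.06). ICAM1 went the other way, from 18.2 ± 0.554 to 26.0 ± 0.876 TPM (0.41, SE 0.06), and RELB had 0.27 (SE 0.08, adjusted p = 0.0104). On the adjusted p alone, 8 genes were lower and 1 higher, against 20.3% and 14.4% of all genes. The median change of the 10 genes was -0.70, beside 0.01 over all genes. Leukocyte markers summed to 3.01 to 4.39 TPM under uracil and 3.37 to 4.12 under 5-FU, and fibroblast and endothelial markers to 1.51 to 2.40 and 1.99 to 3.30 TPM. Of the 3 leukocyte markers tested, 2 were called higher and 1 lower, and 1 of 4 fibroblast and endothelial markers and 1 of 7 epithelial markers were called lower. Their part in the result was not tested.

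In resistant DLD-1, 5-FU called none of the 10 genes at 2-fold with edgeR, where 0.0138% of all genes were called. DESeq2 called 0 as well. Of the 10 genes, 4 had an unadjusted p under 0.05, as did 4041 of all 21814. CXCL8 stood at 34.6, 58.3 and 53.6 TPM under uracil and at 42.2, 37.8 and 43.6 under 5-FU. CXCL2 stood at 8.85, 24.6 and 24.1 and at 16.0, 14.9 and 16.7, and CXCL1 at 25.5, 50.1 and 46.8 and at 33.0, 32.1 and 33.9 TPM. In all of these the first uracil library was low, and the groups overlapped because of it. With every library the changes were -0.23 (SE 0.14) for CXCL8, -0.27 (SE 0.22) for CXCL2 and -0.28 (SE 0.16) for CXCL1.

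Without that uracil library, the same genes changed by -0.43 (CXCL8, adjusted p = 0.00409), -0.61 (CXCL2, adjusted p = 0.000718) and -0.54 (CXCL1, adjusted p = 8.81e-05, edgeR). CXCL3 then had -0.40, CCL20 -0.68, NFKBIA -0.37 and RELB -0.32. On the adjusted p alone, 7 of the 10 genes were then lower and 0 higher, against 0.917% and 0.691% of all genes, and all stayed under 2-fold. With every library, none of the 10 passed the adjusted p, where 0.385% of all genes did.

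The response itself differed between resistant and sensitive DLD-1 for 6 genes. The fall was smaller in resistant cells by 1.20 (SE 0.32, adjusted p = 0.00573) for CXCL2, 1.08 (SE 0.15, adjusted p = 7.24e-06) for CXCL3 and 1.09 (SE 0.21, adjusted p = 0.000292, edgeR) for CXCL8. BIRC3 differed by 0.37 (SE 0.09), and RELB and ICAM1 by -0.45 (SE 0.12) and -0.48 (SE 0.09). These 4 higher and 2 lower differences stood beside 13.7% and 9.12% of all genes. Without the low uracil library the differences were 0.87 for CXCL2, 0.91 for CXCL3 and 0.89 for CXCL8, and CXCL1 was called too, with 0.44. RELB then had -0.58 (adjusted p = 9.94e-07), ICAM1 -0.58 (adjusted p = 7.04e-09) and BIRC3 0.31 (adjusted p = 0.00542, edgeR), all still called. The calls for CXCL3, CXCL8 and ICAM1 held when any 1 library was left out. RELB lost its call in 11 of the 12 such fits and CXCL2 in 7 of them, and all the fits that lost these calls kept the low uracil library. CXCL2 lost its call with DESeq2 as well. BIRC3 lost it without resistant 5-FU replicate 1, which left 3 calls, and with scaling by library size alone.

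Sensitive HCT-116 had 1 call under 5-FU, ICAM1, and at a very low level. Its libraries held 0.168, 0.293 and 0.217 TPM under uracil and 0.397, 0.678 and 0.428 under 5-FU, which did not overlap. The change was 1.295 (SE 0.27, adjusted p = 0.000271, edgeR), and 4.79% of all genes were called higher. BIRC3 had 0.48 (SE 0.09) and TNFAIP3 -0.31 (SE 0.09), both under 2-fold. The 95% intervals for the chemokines were wide at these levels, from -0.57 to 0.44 for CXCL1 and from -0.85 to 0.03 for CXCL8. They were wider for CCL20 (-1.42 to 0.70), CXCL2 (-0.93 to 0.46) and CXCL3 (-0.18 to 0.90), and that of CCL20 reached past a 2-fold fall. The median of the 10 genes was -0.02, beside 0.03 over all genes.

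In resistant HCT-116, 5-FU called 0 of the 10 genes and 0% of all genes with edgeR, and DESeq2 called 0 of the 10 too. Of the 10 genes, 2 had an unadjusted p under 0.05, as did 1878 of all 22975. ICAM1 held 0.514, 0.604 and 0.182 TPM under uracil and 0.417, 0.732 and 0.415 under 5-FU, overlapping. Its response differed from that of sensitive cells by -1.28 (SE 0.37, adjusted p = 0.0078, edgeR), the only call among the 10, against 11.4% of all genes lower. That call was lost with DESeq2 and in 9 of the 12 fits that left out a library.

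In sensitive HT-29 other genes changed, and TNFAIP3, BIRC3 and ICAM1 rose under 5-FU. BIRC3 stood at 1.98, 1.35 and 1.19 TPM under uracil and at 8.08, 8.01 and 9.19 under 5-FU. TNFAIP3 went from 0.506, 0.651 and 0.365 to 3.17, 4.32 and 4.17 TPM, and ICAM1 from 2.34, 2.53 and 2.24 to 9.56, 10.1 and 9.48 TPM. The groups lay well apart in all 3. The changes were 2.40 (SE 0.07, adjusted p = 3.62e-19) for BIRC3, 2.28 (SE 0.10, adjusted p = 1.56e-16) for TNFAIP3 and 1.79 (SE 0.10, adjusted p = 1.49e-14, edgeR) for ICAM1. These 3 of 10 were called higher, against 8.86% of all genes.

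RELB and CXCL8 were also higher in sensitive HT-29, under 2-fold in the test. TPM values are not TMM-scaled, and for both genes their ratio was larger than the tested fold of 1.96 and 1.71. RELB rose in TPM from 6.99, 6.74 and 6.14 to 16.2, 15.9 and 15.4, and its log2 fold change was 0.97 (SE 0.06, adjusted p = 3.85e-13, edgeR). Scaling by library size alone, which moved the median of all genes from 0.03 to 0.19, gave 1.13 and a call for RELB, as did leaving out any of 5 of the 6 libraries. CXCL8 went from 19.0, 17.97 and 17.2 to 36.9, 39.1 and 36.1 TPM, with 0.77 (SE 0.06). The other neutrophil chemokines did not pass, with 95% intervals of -0.22 to 0.37 for CXCL1, -0.52 to 0.43 for CXCL2 and -0.13 to 0.47 for CXCL3, although the TPM of CXCL1 and CXCL3 did not overlap between the groups. NFKBIA, at 27.8 ± 1.57 and 37.3 ± 2.02 TPM, also without overlap, had 0.16 (SE 0.06, adjusted p = 0.0272, edgeR), and CCL20 had 0.68 (SE 0.41). On the adjusted p alone, 5 were higher and 0 lower, against 22.1% and 24.9% of all genes. The median of the 10 genes was 0.73, beside 0.03 over all genes.

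Markers of other cell types moved in the same sensitive HT-29 libraries. Leukocyte markers summed to 7.86 to 10.7 TPM under uracil and 19.1 to 23.6 under 5-FU, with 3 of the 5 tested called higher and 1 lower. Fibroblast and endothelial markers summed to 0.766 to 1.70 and 5.65 to 5.90 TPM, with 3 of the 5 tested called higher. CD68, a lysosomal protein gene, made up most of the first sum, at 4.31 ± 1.56 and 18.9 ± 2.16 TPM, and PECAM1, an adhesion gene of endothelium, most of the second, at 0.332 ± 0.251 and 3.84 ± 0.147 TPM. The defining leukocyte gene PTPRC was at 0.101 ± 0.109 and 0.0494 ± 0.0438 TPM, and MS4A1, a B cell marker, was at 0 in all 6 libraries. The genes named here are a part of each list, and PTPRC and MS4A1 do not stand for the leukocyte markers that were called higher. Over all markers tested, the median change was 1.67 for those of leukocytes and 1.42 for those of fibroblasts and endothelium. Their part in the result was not tested.

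In labelled resistant HT-29, 5-FU called 0 of the 10 genes with edgeR, where 0.00421% of all genes were called, and 0 with DESeq2. Of the 10 genes, 1 had an unadjusted p under 0.05, as did 1280 of all 23756. BIRC3 stood at 2.40, 3.08 and 3.58 TPM under uracil and at 2.84, 4.29 and 2.70 under 5-FU, overlapping. The response was smaller than in sensitive HT-29 by 2.31 on the log2 scale for TNFAIP3 and for BIRC3 (values -2.31, SE 0.12, and -2.31, SE 0.11), and ICAM1 had -2.30 (SE 0.34), RELB -1.14 (SE 0.09) and CXCL8 -0.70 (SE 0.10). These 5 lower differences stood beside 16.1% of all genes, and they compare libraries that carry the profiles of different lines.

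The sensitive lines differed from one another in their response to 5-FU. All 10 genes were higher in the HT-29 response than in the DLD-1 response, where 17.5% of all genes were, from 0.72 (SE 0.07) for NFKBIA to 2.69 (SE 0.10) for TNFAIP3. CXCL8 fell in DLD-1 and was higher under 5-FU in HT-29, a difference of 2.16 (SE 0.11, adjusted p = 8.39e-14, edgeR). Compared with HCT-116, the HT-29 response was higher in 4 (CXCL8, TNFAIP3, BIRC3 and RELB), against 21.3% of all genes, and the DLD-1 response was lower in 7, against 13.8%. The 7 comprised the 4 neutrophil chemokines, NFKBIA, BIRC3 and ICAM1. ICAM1 lost this call without sensitive HCT-116 uracil replicate 1 or 2 or 5-FU replicate 2 or 3, and CXCL2 lost it without sensitive HCT-116 5-FU replicate 3. The comparisons share the samples of each line.

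**Figure D3:**
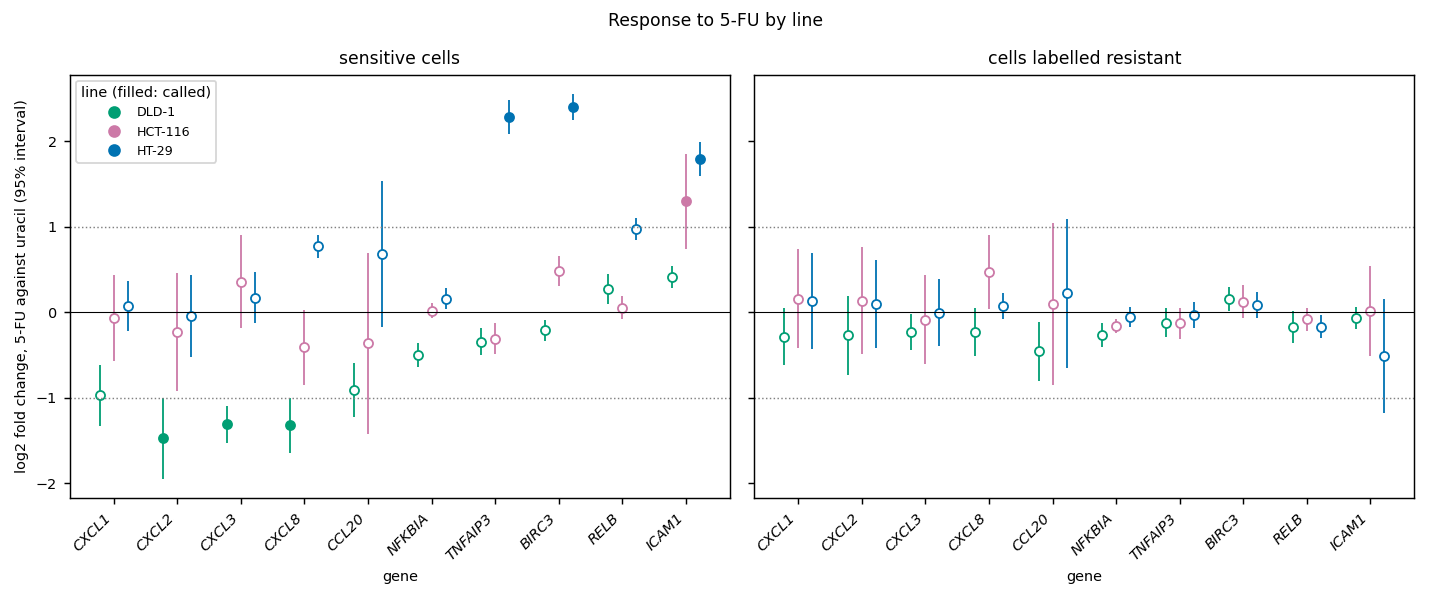
Log2 fold change of each gene under 5-FU against uracil, with 95% intervals, in sensitive cells (left) and cells labelled resistant (right); filled points were called and dotted lines mark 2-fold. Chemokines lie below 0 in sensitive DLD-1 and TNFAIP3, BIRC3 and ICAM1 above 1 in sensitive HT-29, while no point on the right is filled.

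Resistant DLD-1 under uracil held more CXCL1 and CXCL8 and less BIRC3 than sensitive DLD-1. CXCL8 stood at 34.6, 58.3 and 53.6 TPM against 22.2, 20.8 and 17.8, and CXCL1 at 25.5, 50.1 and 46.8 against 20.5, 19.0 and 17.7. The groups did not overlap even with the low library. The changes were 1.27 (SE 0.14, adjusted p = 2.59e-07) for CXCL8 and 1.10 (SE 0.16, adjusted p = 1.19e-05, edgeR) for CXCL1. BIRC3, at 4.68, 4.10 and 4.23 against 8.31, 8.25 and 8.76 TPM, had -1.04 (SE 0.06, adjusted p = 4.45e-11, edgeR). These 2 higher and 1 lower stood beside 3.69% and 2.01% of all genes. Without the low library CXCL8 had 1.47, CXCL1 1.36 and BIRC3 -0.98, which is under 2-fold. Without resistant uracil replicate 2 or 3, CXCL1 fell to 0.92 and 0.97, also under 2-fold. Their paralogues CXCL2 and CXCL3, whose promoters are printed above, had 0.11 (SE 0.21) and 0.24 (SE 0.10) with every library. Without the low library they had 0.45 (adjusted p = 0.000512) and 0.41 (adjusted p = 1.4e-06, edgeR), under 2-fold. TNFAIP3 had -0.58 (SE 0.08) and ICAM1 0.41 (SE 0.06) with every library, and -0.46 and 0.51 without the low one.

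Between resistant and sensitive HCT-116, 1 gene was called under uracil, NFKBIA. Its libraries held 59.5, 61.4 and 54.3 TPM against 25.6, 25.2 and 26.2, a change of 1.12 (SE 0.04, adjusted p = 1.81e-15, edgeR), and 4.17% of all genes were called higher. Both values lay far outside the spread of the replicates, and NFKBIA stayed at 53.7 ± 2.65 TPM under 5-FU in resistant cells and at 26.9 ± 0.702 in sensitive ones. BIRC3 had -0.52 (SE 0.09, adjusted p = 5.28e-05, edgeR), under 2-fold. CXCL1 had -0.91 (SE 0.26, adjusted p = 0.00579, edgeR), and it was called without resistant uracil replicate 3 (-1.07) or sensitive uracil replicate 2 (-1.04). Without resistant uracil replicate 3, ICAM1 was called as well, with 1.04. Fibroblast and endothelial markers summed to 20.9 to 25.7 TPM in sensitive and 10.7 to 14.4 in resistant cells, with 2 of the 4 tested called lower, as was 1 of 6 epithelial markers. Leukocyte markers summed to 9.53 to 10.8 and 14.2 to 16.3 TPM, with 1 of 4 called higher and 1 lower. Their part in the result was not tested.

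Between labelled resistant and sensitive HT-29, 4 genes were called under uracil, where 21.4% of all genes were called higher and 18% lower. ICAM1 (-3.99, SE 0.17), CXCL1 (-3.33, SE 0.20) and CXCL3 (-1.46, SE 0.17) were lower and TNFAIP3 (2.85, SE 0.10) higher. Set against the line whose markers they carried, the same libraries had 1 gene of the 10 called at 2-fold with edgeR, CXCL8, and 1.82% of all genes were called higher. On the adjusted p alone 4 passed, with NFKBIA at 0.82 (SE 0.08), TNFAIP3 at 0.58 (SE 0.09) and RELB at 0.39 (SE 0.10) beside CXCL8. All 4 were higher, and of all 23466 genes 2080 were higher and 4393 lower on that adjusted p. CXCL8 stood at 15.1, 15.3 and 15.4 TPM against 3.04, 2.56 and 3.08, a change of 2.28 (SE 0.17, adjusted p = 6.46e-10, edgeR). Against resistant HCT-116 it was again the single call, with 2.47 (SE 0.17), where 1.71% of all genes were called higher. NFKBIA, at 51.4 ± 3.4 TPM, lay near the 58.4 ± 3.65 TPM of resistant HCT-116 (-0.27, SE 0.08).

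**Figure D4:**
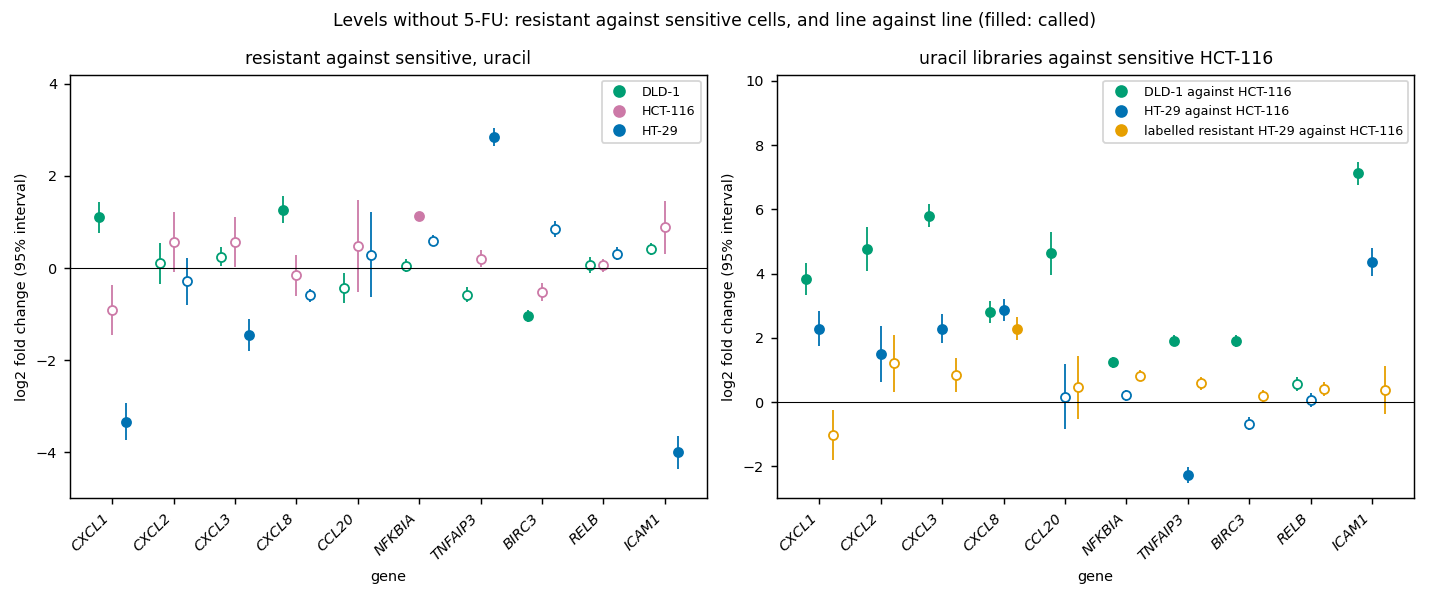
Log2 fold changes with 95% intervals under uracil, in resistant against sensitive cells of each line (left) and in 3 sets of libraries against sensitive HCT-116 (right); filled points were called. On the right, labelled resistant HT-29 is called for CXCL8 alone, whereas DLD-1 is called for 9 genes.

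Adding irradiation to 5-FU called none of the 10 genes in any of the 6 line and state pairs with edgeR, and DESeq2 called 0 too. All genes were called at 0% in sensitive DLD-1 and sensitive HCT-116, 0.00842% in sensitive HT-29, 0.142% in resistant DLD-1, 0.0261% in resistant HCT-116 and 0.434% in labelled resistant HT-29. An unadjusted p under 0.05 was found for 0, 3 and 2 genes in the sensitive cells of HT-29, HCT-116 and DLD-1. Over all genes it was found for 786 of 23756, 1943 of 22975 and 2447 of 21814. For cells labelled resistant the counts were 3, 2 and 5 genes, beside 7721, 4305 and 4714 of the same totals. The sole adjusted p at or under 0.01 was that of ICAM1 in resistant DLD-1, at 23.3, 21.4 and 22.8 TPM under 5-FU and 27.0, 27.1 and 29.9 with irradiation (0.30, SE 0.06, adjusted p = 0.00349, edgeR). Of all 21814 genes in those cells, 527 were higher and 312 lower on that adjusted p. NFKBIA in the same cells had -0.28 (SE 0.07, adjusted p = 0.0118, edgeR). Irradiation came after a change of medium, so irradiation and that step cannot be told apart.

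Outside the 10 genes, 98 genes of the pathway in 9 lists were followed. In sensitive HT-29 under 5-FU, 19 of the 83 that could be tested were called higher and 0 lower, beside 8.86% of all genes higher, and their median was 0.35. NFKB2, the partner of RELB, went from 10.99 ± 0.862 to 38.8 ± 1.13 TPM (1.55, SE 0.05), and MAP3K14, the kinase that drives NFKB2 processing, from 3.43 ± 0.333 to 9.64 ± 0.355 TPM (1.27, SE 0.05). The IkB family genes NFKBIZ (1.11, SE 0.04) and NFKBIE (1.07, SE 0.09) and the receptors IL1R1 (2.25, SE 0.12) and TNFRSF1B (1.61, SE 0.20) were called too.

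Among ligands of the pathway in sensitive HT-29, LTB went from 0.215 ± 0.0871 to 2.17 ± 0.446 TPM and IL1B from 0.173 ± 0.1 to 1.45 ± 0.0682 TPM. LTA had 0 counts in the 3 uracil libraries and 12, 13 and 5 under 5-FU. Of the other known targets, PLAU, which activates plasminogen, had 3.27 (SE 0.10) and the growth factor gene CSF1 1.96 (SE 0.15). CSF2, another growth factor gene, had 4, 2 and 2 counts under uracil and 139, 128 and 100 under 5-FU. The chemokines CXCL11 and CX3CL1, the adaptor TRAF1 and the integrin gene ITGAM had 1.67, 1.31, 1.03 and 1.49.

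In the other sensitive lines the counts were smaller. In sensitive DLD-1, 0 of 78 were higher and 2 lower, beside 2.66% and 1.37% of all genes: TNFRSF1B (-1.35, SE 0.12) and CXCR2 (-1.10, SE 0.26), the receptor of the chemokines that fell there. In sensitive HCT-116, EBI3 (2.15, SE 0.18) and LCN2 (1.72, SE 0.20) were higher and IL1R1 (-1.05, SE 0.10) lower, of 78, beside 4.79% and 3.36% of all genes. With edgeR, 5-FU called 0 of these genes in resistant DLD-1, resistant HCT-116 or labelled resistant HT-29. In resistant DLD-1 under uracil, TNFRSF1B (-2.53, SE 0.14), IL32 (-1.84, SE 0.13) and CXCR2 (-1.69, SE 0.29) were lower than in sensitive cells and 0 of 78 were higher, beside 2.01% and 3.69% of all genes.

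**Figure D5:**
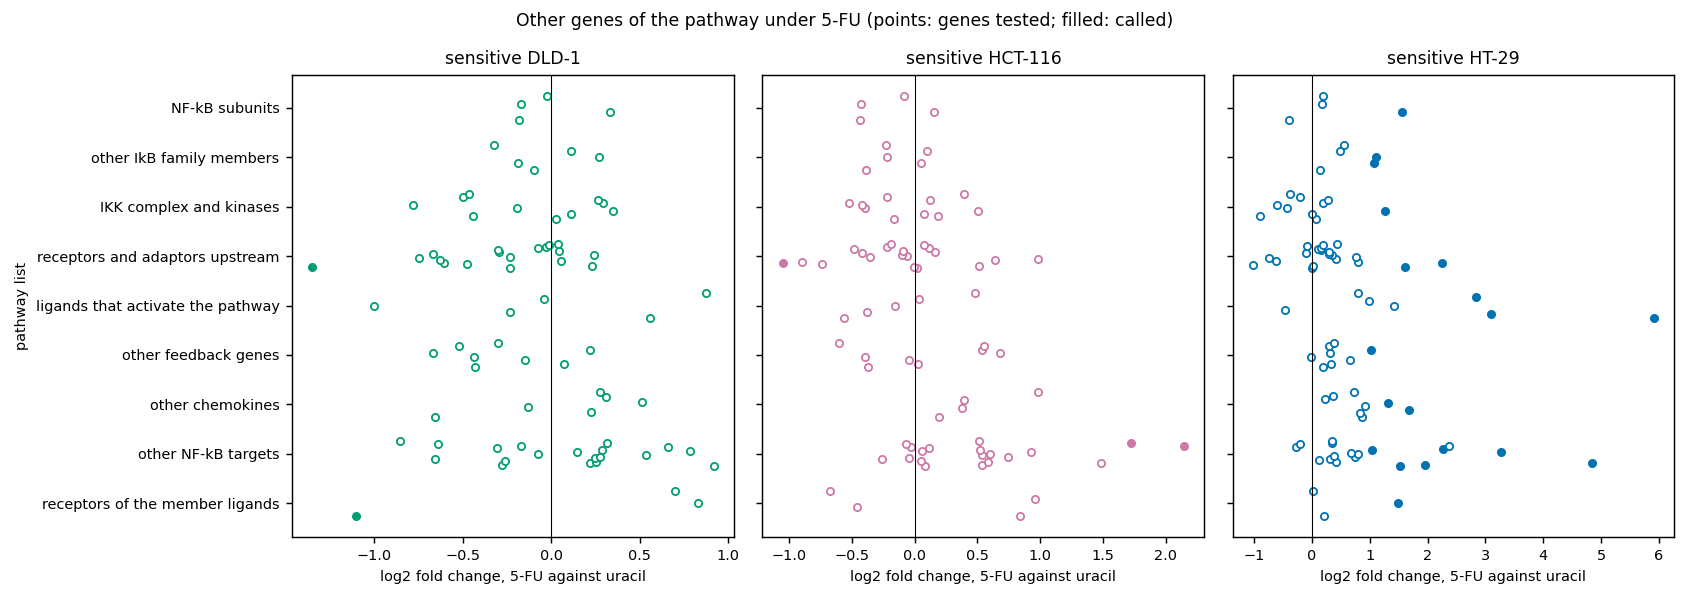
Log2 fold change under 5-FU of the other pathway genes in the 3 sensitive lines, by list; points are genes tested and filled points were called. In HT-29, 19 points are filled and all lie above 1, whereas DLD-1 and HCT-116 have 2 and 3. The horizontal scales differ between panels, and the farthest HT-29 point is LTA, whose fitted value rests on uracil libraries at 0 counts.

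Over the 18 condition means of log2(TPM + 1), CXCL2 and CXCL3 followed each other most closely among the chemokines (r = 0.986), and CXCL1 followed CXCL3 with r = 0.957. CXCL8 was looser, with r = 0.682 to CXCL3. The patterns were compared over 21996 genes, which include the 10 followed here. Outside those 10, the closest in pattern were SLC2A10 to CXCL1 (r = 0.991), NAGLU to CXCL2 (r = 0.983), AMACR to CXCL3 (r = 0.988), BTF3L4 to CXCL8 (r = 0.934) and EVX1 to CCL20 (r = 0.992). For others they were IFNLR1 to TNFAIP3 (r = 0.96), SAV1 to RELB (r = 0.936) and PRAG1 to ICAM1 (r = 0.993), and an unnamed transcript, AC254562.2, to NFKBIA (r = 0.933). With a pseudocount of 0.1 in place of 1, the closest genes of CXCL1, CXCL2, CCL20 and ICAM1 were no longer among the first 3. The 18 points fall into few cell populations that differ in many genes, so these values describe the data set and carry no test.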

How the data were processed

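The authors trimmed paired reads with Trimmomatic 0.36, checked them with FastQC 0.11.8 and quantified them with kallisto 0.44.0 against GRCh38.p13 transcripts; their gene values are sums over transcripts. The deposited estimated counts were rounded to whole numbers and tested here, and the deposited TPM values, which the authors give per gene, were used for levels. edgeR 4.0.16 in R 4.3.3 fitted each line (18 libraries, 6 groups, 12 residual degrees of freedom), all uracil libraries, and the sensitive uracil and 5-FU libraries, with TMM scaling and edgeR's default filter on low counts. The test recovered known changes in simulated data. Its recovery of changes near the fold threshold, of genes at low counts and of differences between responses is not shown here. The study describes biological triplicates, but the labels do not say that replicates were separate cultures, and p-values then measure only the spread between these libraries. Alternatives were an adjusted p of 0.05, library size scaling, no filter, a replicate block, only the groups compared, DESeq2 1.42.0, a thinned deepest library and each library left out. Alignments and motif searches used Python 3.11.15. The library depths are given in the report; levels near 1 TPM rest on few reads.

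The 10 genes, the pathway lists and the motifs were chosen with earlier results of these data known. Text names all 10 genes, up to 4 called genes of each list with the largest changes, and the closest genes by correlation; a few items that this rule would name are not reported here.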

Additional observations from a re-analysis of the deposited data

Results flagged for a closer look

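A test of the difference between 2 responses to 5-FU (an interaction term in edgeR, adjusted p at most 0.01) passed for the genes named here, and every value is a difference of log2 fold changes.

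Between resistant and sensitive DLD-1, the response was higher in resistant cells for CXCL2 (1.20), CXCL3 (1.08), CXCL8 (1.09) and BIRC3 (0.37). It was lower for RELB (-0.45) and ICAM1 (-0.48). Between resistant and sensitive HCT-116, ICAM1 differed by -1.28. This ICAM1 call and the DLD-1 calls of CXCL2, RELB and BIRC3 were lost in some fits that left out a library, as given above. With DESeq2, ICAM1 in HCT-116 and CXCL2 in DLD-1 were not called either. Between labelled resistant and sensitive HT-29, which carry the profiles of different lines, the values were -0.70 for CXCL8, -2.31 for TNFAIP3, -2.31 for BIRC3, -1.14 for RELB and -2.30 for ICAM1.

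Among sensitive lines, the DLD-1 response minus that of HCT-116 was -0.92 for CXCL1, -1.24 for CXCL2, -1.70 for CXCL3 and -0.93 for CXCL8. It was -0.54 for NFKBIA, -0.71 for BIRC3 and -0.91 for ICAM1. The calls of CXCL2 and ICAM1 between these lines were lost in some fits that left out a library. The HT-29 response minus that of HCT-116 was 1.23 for CXCL8, 2.63 for TNFAIP3, 1.96 for BIRC3 and 0.97 for RELB. The HT-29 response minus that of DLD-1 was 1.10 for CXCL1, 1.49 for CXCL2, 1.55 for CXCL3, 2.16 for CXCL8 and 1.66 for CCL20. For the feedback genes it was 0.72 (NFKBIA), 2.69 (TNFAIP3) and 2.67 (BIRC3), and for RELB and ICAM1 it was 0.77 and 1.45.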

How the results depend on the processing

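No called value of the 10 genes changed sign under any alternative run, and 341 recomputed counts of called genes stayed within 1.5 times the count reported while 21 did not. The 341 include runs where 0 genes were called both times, which say nothing on how stable the calls are. The response of resistant minus sensitive DLD-1, with 6 genes called, gave 3 to 7 when a library was left out, with 3 without resistant 5-FU replicate 1 and 7 without resistant uracil replicate 1. Resistant against sensitive HCT-116 under uracil gave 1 to 3, with 2 without sensitive uracil replicate 2 and 3 without resistant uracil replicate 3. The response of resistant minus sensitive HCT-116, with 1 gene called, gave 4 with an adjusted p of 0.05, 3 with library size scaling, 0 with DESeq2 and 0 with the replicate block. With a library left out it gave 0 to 2, and 2 came without resistant uracil replicate 3. Labelled resistant HT-29 against sensitive HCT-116, with 1 gene called, gave 3 with an adjusted p of 0.05, 3 without the filter, 2 with only the groups compared and 3 with DESeq2. The cause was not tested. Same-numbered libraries did not deviate together over all genes (correlations -0.08 to 0.10). That does not show whether they shared a culture or batch, since one that acts on few genes would be missed. Apart from the HCT-116 response the replicate block moved no count of called genes by over 1.5 times.

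Scaling by library size alone moved the median of all genes from 0.01 to 0.12 in sensitive DLD-1 under 5-FU, from 0.03 to 0.19 in sensitive HT-29 and from 0.03 to 0.11 in sensitive HCT-116. It went from 0.00 to 0.26 in labelled resistant against sensitive HT-29, where BIRC3 was then called (1.12). All calls then split into 758 higher and 212 lower against 580 and 298 in DLD-1, 1365 and 634 against 1100 and 771 in HCT-116, and 2681 and 478 against 2105 and 785 in HT-29. For the DLD-1 difference of responses the split became 1930 and 2989 against 2988 and 1990. Low counts limit CCL20 in HCT-116 and HT-29 and ICAM1, CXCL1, CXCL2 and CXCL3 in HCT-116. In labelled resistant HT-29 under uracil, ICAM1 had 27, 16 and 12 counts and CXCL1 had 12, 23 and 24, which limits their changes too.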
